A study of Danio rerio with 8 samples.

Results

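Expression of 6 genes of epidermis and other epithelia was followed by Ensembl ID among the 22416 genes listed for 8 zebrafish melanomas. They were 3 keratin genes, krt4 (ENSDARG00000017624), krt5 (ENSDARG00000058371) and krt8 (ENSDARG00000058358), the adhesion genes cdh1 (ENSDARG00000102750) and epcam (ENSDARG00000040534), and the transcription factor gene tp63 (ENSDARG00000044356). All 6 IDs were listed, all 6 carried these symbols in the gene name table used (tp63 as TP63), and all 6 passed the filter on low values, as did 16853 genes in all. The melanomas came from fish of the strain tp53m214K/m214k; mitfa-/-; nras G12D, taken at 10 to 12 weeks. Fish without mitfa lack melanocytes but keep an epidermis, and the labels do not name a promoter for nras G12D. Control tumours carried Tg(mitfa:egfp) (n = 3) and the other tumours Tg(mitfa:dgat1a) (n = 5), where dgat1a encodes an enzyme that makes triacylglycerol. The mitfa promoter drives both transgenes in the melanocyte lineage, so skin cells around a tumour are not their target. RNA came from tumours cut out of the fish, and nothing in the labels says that cells were sorted or that each tumour came from a separate fish, so p-values measure the spread between these samples.

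The epidermis of the zebrafish is a layered epithelium that lies over the pigment cells of the skin. Its cells are filled with keratin filaments built from paired type I and type II keratins, and they are held together by cadherins, claudins and desmosomes. The transcription factor p63, the product of tp63, maintains the basal keratinocytes at the base of this layer. E-cadherin, the product of cdh1, also joins melanocytes to keratinocytes in mammalian skin, and type II keratin 8 with its type I partner keratin 18 is typical of simple epithelia.

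Levels are given in fpm, a per-million signal as scaled by the authors, which is not corrected for gene length, so levels are compared between tumours and not between genes. The libraries held 20936089 to 26865735 reads in the listed genes, and 3 reads, used as a floor for detection, were worth 0.109 to 0.138 fpm. egfp replicate 1 held 23921802 reads, within the range of the others, and 1232 genes were listed at 0 there against 353 to 777 in the other tumours. The pigment cell genes expected of a melanoma were present in all 8 tumours: the neural crest factor SOX10 ranged from 667 to 1116 fpm and the melanosome gene pmela from 1398 to 13275 fpm.

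The keratins of the epidermis came first. krt4, a type II keratin of the surface layers of zebrafish epidermis, measured 5.46, 437 and 270.5 fpm in egfp replicates 1 to 3 and 116, 581, 156, 105 and 460.5 fpm in dgat1a replicates 1 to 5. egfp replicate 1 was far below every other tumour, and the remaining egfp tumours lay inside the dgat1a range. krt5, a type II keratin of the epidermis that in mammals marks its basal layer, measured 16.7, 2329 and 1129.9 fpm in the egfp tumours and 634, 2334, 585, 854 and 2473 fpm in the dgat1a tumours. The same tumour was lowest by a wide margin: the lowest of the other 7 tumours was 19.2-fold above it for krt4 and 35.02-fold above it for krt5. Among those 7 tumours the highest level was 5.55-fold the lowest for krt4 and 4.23-fold the lowest for krt5. In bulk tumours, fewer cells of a type and less RNA per cell cannot be told apart.

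tp63 and epcam had the same low tumour. tp63 measured 0.793, 25.5 and 13.2 fpm in the egfp tumours and 6.99, 32.9, 10.1, 20.4 and 30.4 fpm in the dgat1a tumours. epcam, which encodes a homophilic adhesion protein of epithelial cells, measured 0.881, 90.7 and 57.3 fpm in the egfp tumours and 32.04, 150.3, 58.95, 101 and 105 fpm in the dgat1a tumours. In egfp replicate 1 these levels rested on 18 reads of tp63 and 20 reads of epcam, above the floor of 3 reads, so both were detected there. The lowest other tumour, dgat1a replicate 1 for both genes, was 8.82-fold higher for tp63 and 36.4-fold higher for epcam.

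krt8 and cdh1 did not share that pattern. krt8 measured 1585, 908 and 2004 fpm in the egfp tumours and 1682, 2413, 1809.8, 1324 and 1455 fpm in the dgat1a tumours. egfp replicate 1 held the fifth highest level, egfp replicate 2 the lowest, and the highest tumour was 2.66-fold the lowest. cdh1 measured 361, 253 and 61.7 fpm in the egfp tumours and 169.8, 173, 203, 423 and 269.6 fpm in the dgat1a tumours. Here egfp replicate 1 was second only to dgat1a replicate 4, and the low tumour was egfp replicate 3. The 6 genes named as epidermal were thus not 1 unit in these tumours: krt4, krt5, tp63 and epcam were low together in egfp replicate 1, and krt8 and cdh1 were not.

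**Figure D1:**
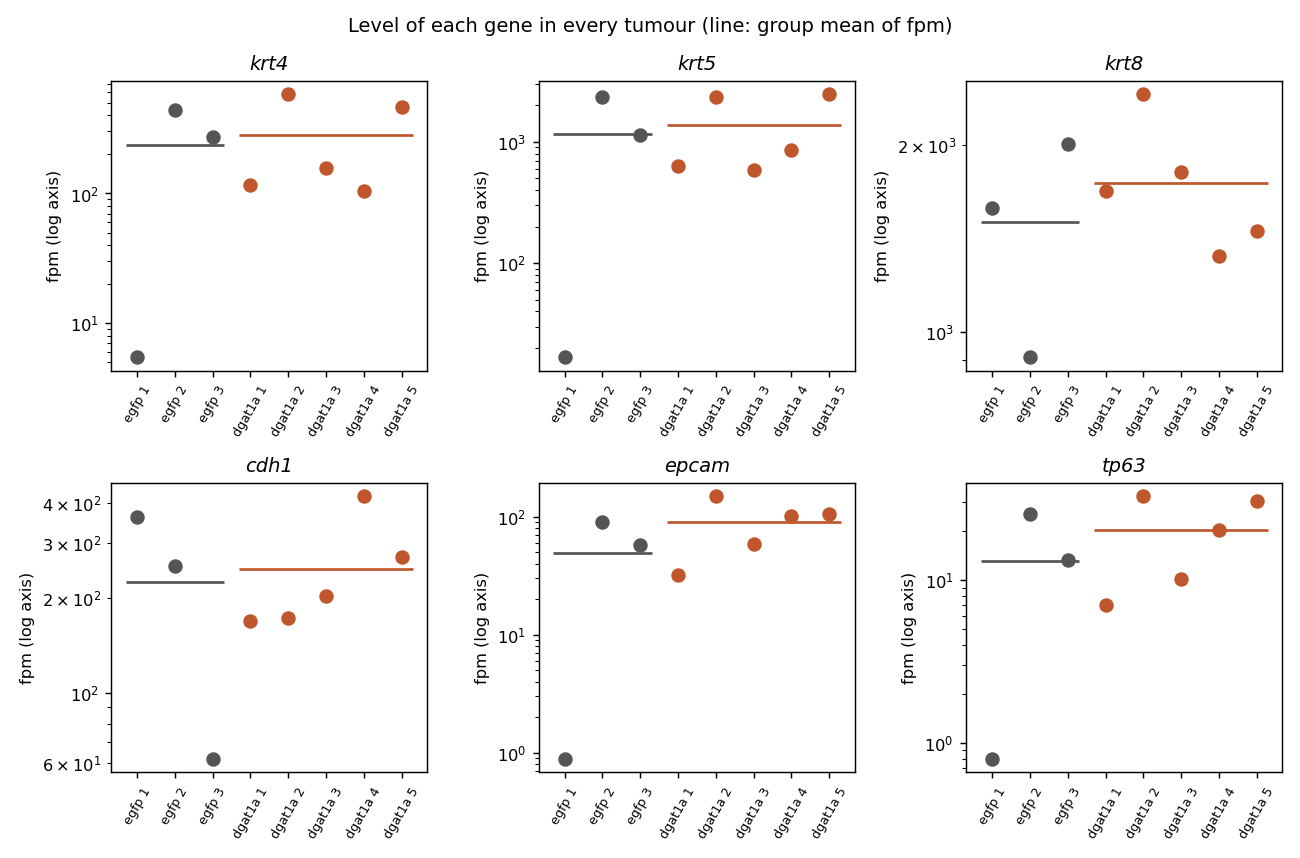
Level of each of the 6 genes in every tumour, in fpm on log axes, with grey points for egfp tumours, orange points for dgat1a tumours and a line at each group's mean. egfp replicate 1 is the lowest point for krt4 (5.46 fpm), krt5 (16.7), epcam (0.881) and tp63 (0.793), but not for krt8 (1585) or cdh1 (361).

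Whether dgat1a tumours differed from egfp tumours was tested with limma on log2(fpm + 0.5) over all 16853 genes. None of the 6 genes passed a Benjamini-Hochberg adjusted p of 0.05, against 0.0534% of all tested genes, and none had an unadjusted limma p under 0.05, against 15% of all tested genes. The groups overlapped in all 6 genes, and they did not overlap in 10.4% of all tested genes. At that share, 6 genes are too few to show a contrast. The edgeR quasi-likelihood test and DESeq2 on recovered reads also called 0 of the 6, against 0.0178% and 5.14% of all tested genes, and neither gave any of the 6 an unadjusted p under 0.05, against 16.5% and 19.0%. The authors' deposited table called 0 of the 6 as well, against 3.67% of its genes. There, in the authors' deposited table, the 6 log2 fold changes ran from 0.11 for cdh1 to 0.55 for epcam, with adjusted p-values from 0.683 to 0.933.

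The group means in fpm were close relative to their spread. krt4 averaged 238 ± 218 fpm (SD, n = 3) in egfp tumours and 284 ± 221 fpm (SD, n = 5) in dgat1a tumours. krt5 averaged 1159 ± 1156 fpm (SD, n = 3) and 1376 ± 945 fpm (SD, n = 5). For both keratins the SD was nearly as large as the mean or about equal to it in the egfp tumours. epcam averaged 49.6 ± 45.4 fpm (SD, n = 3) against 89.5 ± 45.6 fpm (SD, n = 5). tp63 averaged 13.2 ± 12.3 fpm (SD, n = 3) against 20.2 ± 11.6 fpm (SD, n = 5). The spread was smaller for the simple-epithelium keratin krt8, with 1499 ± 553 fpm (SD, n = 3) and 1737 ± 423 fpm (SD, n = 5). cdh1 averaged 225 ± 152 fpm (SD, n = 3) and 248 ± 106 fpm (SD, n = 5).

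On the log2(fpm + 0.5) scale the differences, dgat1a minus egfp, were larger, and for krt4, krt5 and tp63 their direction changed without 1 library. epcam had the largest log2 fold change of the 6, 2.03 with a standard error of 1.20 and a 95% interval of -0.66 to 4.73 (limma adjusted p = 0.44). Without egfp replicate 1 it was 0.13, with an interval of -1.10 to 1.35 (limma adjusted p = 0.963). krt5 had a log2 fold change of 1.66 (95% interval -1.44 to 4.77; limma adjusted p = 0.578), which was -0.52 without egfp replicate 1 (-1.99 to 0.94). krt4 had a log2 fold change of 1.30 (-1.56 to 4.17; limma adjusted p = 0.642), which was -0.65 without that tumour (-2.22 to 0.93). tp63 had 1.19 (-0.85 to 3.24; limma adjusted p = 0.541), and -0.095 without it (-1.48 to 1.29).

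The intervals with all 8 tumours reach from -1.56 to 4.17 for krt4 and from -0.85 to 3.24 for tp63, so a p that missed the threshold does not show that the groups were alike. Leaving the tumour out narrowed the 4 intervals and moved them around 0. For krt8 the log2 fold change was 0.25 (95% interval -0.41 to 0.92; limma adjusted p = 0.697) and 0.33 without egfp replicate 1. For cdh1 it was 0.38 (-0.84 to 1.6; limma adjusted p = 0.752) and 0.89 without egfp replicate 1 (-0.34 to 2.13; limma adjusted p = 0.661). cdh1 depended on another tumour: without egfp replicate 3, where it was lowest, its log2 fold change was -0.38 (limma adjusted p = 0.64). krt8 was -0.069 without egfp replicate 2, its lowest tumour (limma adjusted p = 0.904). Over all tested genes the median was 0.044.

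**Figure D2:**
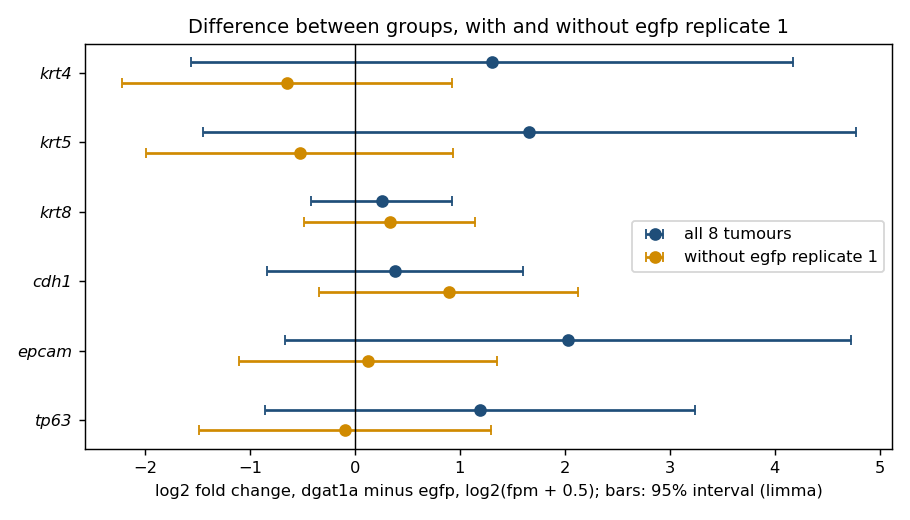
Log2 fold change of each gene between dgat1a and egfp tumours on log2(fpm + 0.5), with all 8 tumours in blue and without egfp replicate 1 in orange, where points are limma estimates and bars their 95% intervals. The values for krt4, krt5 and tp63 move from 1.30, 1.66 and 1.19 to -0.65, -0.52 and -0.095, and every interval crosses 0.

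The spread between single tumours was the larger feature of these genes. Over the 8 tumours the SD of log2(fpm + 0.5) was 2.35 for krt5, 2.16 for epcam, 2.12 for krt4 and 1.54 for tp63, against a median of 0.49 over all tested genes. These SDs were larger than those of 99.4%, 99.1%, 99.03% and 96.2% of tested genes. Without egfp replicate 1 they were 0.92, 0.73, 1.01 and 0.82, against a median of 0.45, and still exceeded 88.3%, 79.9%, 90.9% and 84.6% of tested genes. cdh1 was also variable, with an SD of 0.85 that exceeded 80.6% of tested genes, and it stayed at 0.86 without that tumour. krt8 had an SD of 0.42, larger than that of 39.96% of tested genes.

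Summed, the 4 genes krt4, krt5, epcam and tp63 took 0.00226% of the reads of egfp replicate 1, 0.282% and 0.149% in egfp replicates 2 and 3, and 0.0777%, 0.301%, 0.0839%, 0.11% and 0.338% in dgat1a replicates 1 to 5. krt5 held most of this sum (2329 of 2882 fpm in egfp replicate 2). By the sum, egfp replicate 2 and dgat1a replicates 2 and 5 were the rich tumours, and dgat1a replicates 1, 3 and 4 were lower. For epcam the order differed, with 101 fpm in dgat1a replicate 4 against 90.7 fpm in egfp replicate 2. The place of egfp replicate 1 at the bottom is no separate result, since the 4 genes were grouped after their low values there were seen. krt8 by itself took 0.15% of the reads of egfp replicate 1, within the 0.0888% to 0.234% of the other tumours.

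Ratios between the genes, read only between tumours, moved in egfp replicate 1 both within the group of 4 and, by far more, against krt8 and cdh1. The fpm of krt5 was 3.06 times that of krt4 in egfp replicate 1 and 3.75 to 8.16 times in the other tumours, although both levels differed by more than 100 times over the 8 tumours (106 and 148 times between lowest and highest). The fpm of epcam was 1.11 times that of tp63 in egfp replicate 1, on 20 and 18 reads, and 3.46 to 5.82 times in the others. Both ratios thus lay below the range of the other tumours there. By contrast, the fpm of cdh1 was 409.8 times that of epcam in egfp replicate 1 and 1.08 to 5.30 times in the others. The fpm of krt8 was 94.9 times that of krt5 in egfp replicate 1 and 0.39 to 3.10 times in the others. As with the sum, this contrast with krt8 and cdh1 is no separate result. The genes were grouped after their values in egfp replicate 1 were seen.

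Correlations of log2(fpm + 0.5) over the tumours were computed for all 15 pairs of the 6 genes. Over 8 tumours the 6 pairs among krt4, krt5, epcam and tp63 had Pearson's r of 0.94 to 0.98, each past the threshold after adjustment over the 15 pairs. epcam and tp63 had r = 0.97 (exact permutation test, two-sided, p = 0.000174, adjusted p = 0.0026) and Spearman's rho = 0.95 (exact permutation p = 0.00114, adjusted p = 0.0167). krt4 and krt5 had r = 0.98 (exact permutation p = 0.000918, adjusted p = 0.00459) and rho = 0.88 (exact permutation p = 0.00724, adjusted p = 0.0362). By Spearman's rho, which ran from 0.74 to 0.95, 4 of the 6 pairs passed after adjustment.

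egfp replicate 1 lay apart, so the pairs were also read without it. Fewer tumours make the threshold harder to pass, so a pair that no longer passed need not have lost its correlation. Without the 2 tumours farthest from the median of the gene on the x axis, egfp replicate 1 being among them for each of these 6 pairs, r ran from 0.48 to 0.92 and 0 pairs passed after adjustment. Over the 7 other tumours r ran from 0.64 to 0.96, and epcam with tp63 was the 1 pair that passed (r = 0.96, exact permutation p = 0.00139, adjusted p = 0.0208), although not by rho (rho = 0.93, exact permutation adjusted p = 0.0923). krt4 and krt5 had r = 0.93 over the 7 tumours (exact permutation p = 0.0153, adjusted p = 0.0804). krt5 and tp63 had r = 0.89 (exact permutation p = 0.0161, adjusted p = 0.0804).

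The 9 pairs that include krt8 or cdh1 had r from -0.52 to 0.023 over the 8 tumours, and 0 of them passed (smallest exact permutation adjusted p = 0.39, for krt8 with cdh1). For that pair r was -0.52 and rho was -0.71, with unadjusted exact permutation p-values of 0.182 and 0.0576. cdh1 and epcam had r = -0.23 over 8 tumours and 0.40 over the 7 without egfp replicate 1 (exact permutation adjusted p-values of 0.718 and 0.717). krt5 and krt8 are neighbours in the RefSeq annotation of GRCz12tu, with 0 protein-coding genes between them, and had r = -0.067 over 8 tumours (exact permutation adjusted p = 0.969). That annotation also lists krt8 as an older name of krt4, and how reads shared between similar keratin genes were counted is not given in the sources used here, so the split of reads among keratins is uncertain.

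**Figure D3:**
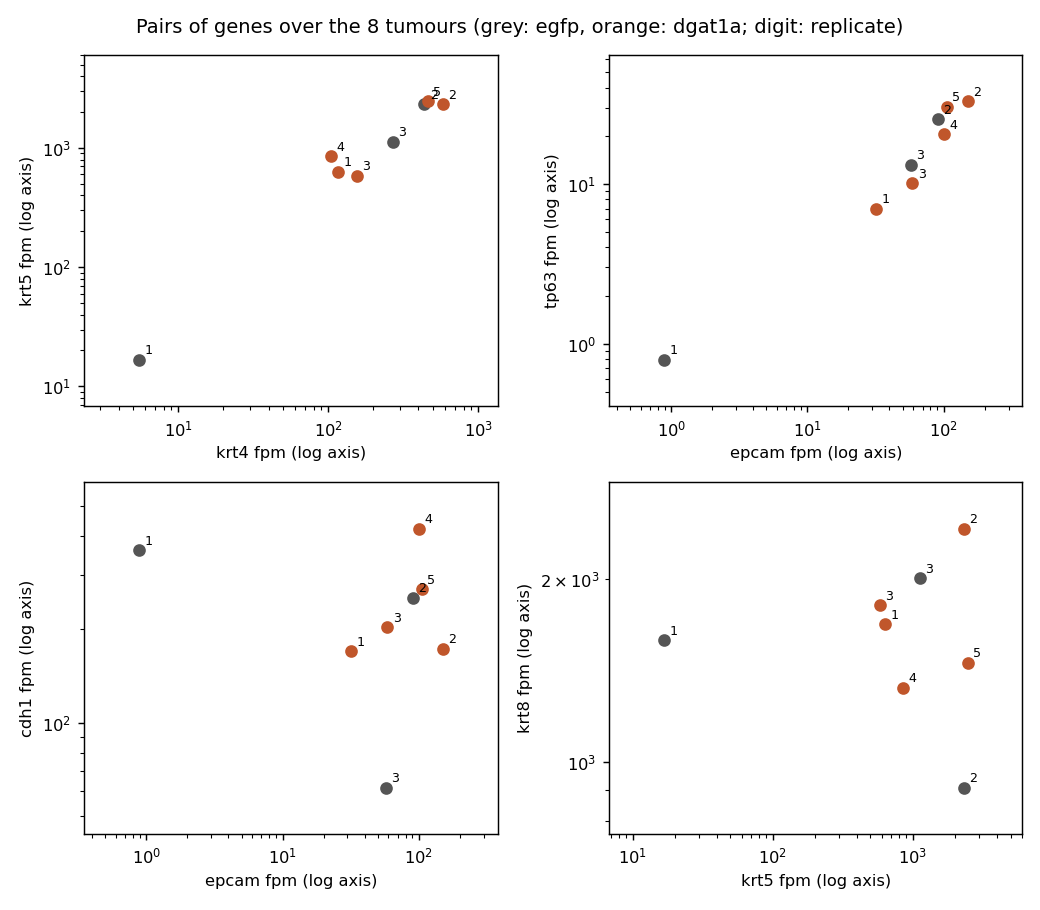
Pairs of genes over the 8 tumours in fpm on log axes, grey for egfp and orange for dgat1a tumours, with the replicate number beside each point. krt4 with krt5 and epcam with tp63 fall along a line with egfp replicate 1 at the lower end, while that tumour holds 361 fpm of cdh1 at 0.881 fpm of epcam and 1585 fpm of krt8 at 16.7 fpm of krt5.

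Other genes of epithelia were read from 3 lists: other keratins, junction proteins with epithelial regulators, and genes of basal keratinocytes and their basement membrane. Of 16, 29 and 15 listed IDs, 13, 28 and 14 passed the filter on low values, 55 in all. With limma 0 of the 55 passed the adjusted threshold in either direction (0.0534% of all tested genes did), and 2 had an unadjusted p under 0.05, DST higher and LAMA5 lower in dgat1a tumours, against 15% of all tested genes. Their median log2 fold change was 0.92, against 0.044 over all tested genes, and -0.26 without egfp replicate 1, against 0.023. egfp replicate 1 was the lowest of the 8 tumours in 47 of the 55 IDs, against 23.7% of all tested genes. It lay at least 2 log2 units under the lowest of the other 7 in 24 of the 55, or 43.6%, against 1.64% of all tested genes. Among the 6 genes themselves this held for krt4, krt5, epcam and tp63, and by this distance krt5 ranked 2, epcam 9, krt4 15 and tp63 148 among the 16853 genes.

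Among the 13 other keratins tested, egfp replicate 1 was lowest in 12 and at least 2 log2 units below the rest in 5. krt15, a type I keratin of stratified epithelia, measured 1.89 fpm there, 216 and 182 fpm in the other egfp tumours, and 67.1 to 789 fpm in dgat1a tumours, with a log2 fold change of 1.98 (limma adjusted p = 0.516). krt17, another type I keratin, measured 0.705 fpm there, 162 and 133 fpm in the other egfp tumours, and 39.1 to 222 fpm in dgat1a tumours, with a log2 fold change of 1.82 (limma adjusted p = 0.553). Without egfp replicate 1 both directions turned, to -0.15 for krt15 and -0.49 for krt17. krt93, the other of the 3 largest differences, was listed at 0 in egfp replicate 1 but was under 0.2 fpm in 4 more tumours. Its log2 fold change was 1.41 (limma adjusted p = 0.42), and 1.29 without egfp replicate 1. Of the type I partners of krt8, krt18a.1 measured 38.8 fpm in egfp replicate 1 against 96.8 to 307 fpm in the others, and krt18b 184 against 484 to 1061 fpm. That is 1.31 and 1.40 log2 units below the lowest other tumour. krt94 and krt97 lay 1.37 and 1.45 units below, and krt92 1.26 units below on 3 reads, the floor. The 5 keratins at least 2 log2 units below lay farther away, from 2.80 units for icn to 5.04 for krt17. The summed level of the 13 was 322 fpm in egfp replicate 1, 4283 and 3155 fpm in the other egfp tumours and 1776 to 4649 fpm in dgat1a tumours.

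Junction genes and epithelial regulators followed the same tumour. egfp replicate 1 was lowest in 25 of 28 IDs and at least 2 log2 units below the rest in 15. The tight junction gene cldnb measured 0.308 fpm there, 69.2 and 36.2 fpm in the other egfp tumours, and 25.9 to 126 fpm in dgat1a tumours, with a log2 fold change of 2.18 (limma adjusted p = 0.428). The claudins cldn7b and cldni had log2 fold changes of 1.96 and 1.71 (limma adjusted p-values of 0.393 and 0.512). Without egfp replicate 1 the values were 0.19 for cldnb, 0.37 for cldn7b and -0.25 for cldni. The epithelial regulators grhl3 and ovol1a and the junction genes cldnf and oclnb were listed at 0 in egfp replicate 1. Both IDs of the plakoglobin gene JUP, whose product binds cadherins, were exceptions. The ID with the higher level measured 240.3 fpm in egfp replicate 1 against 169 to 331 fpm in the other tumours. The ID with the lower level measured 3.57 fpm there against 2.75 to 11.3 fpm. The remaining exception was spint1b, with 5.68 fpm in egfp replicate 1 and its lowest level, 3.43 fpm, in dgat1a replicate 1.

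Genes of basal keratinocytes and the basement membrane were less uniform. egfp replicate 1 was lowest in 10 of 14 IDs. The anchoring collagen gene col7a1 was at 1 read in egfp replicate 1, or 0.044 fpm, against 13.5 to 48.8 fpm in the other tumours. Its log2 fold change was 1.22 (limma adjusted p = 0.661), and -0.86 without egfp replicate 1. The laminin gene LAMA5 went the other way, with 177 fpm in egfp replicate 1 against 6.77 to 36.9 fpm in the other tumours, and a log2 fold change of -1.81 (limma adjusted p = 0.268), which was -0.97 without egfp replicate 1.

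**Figure D4:**
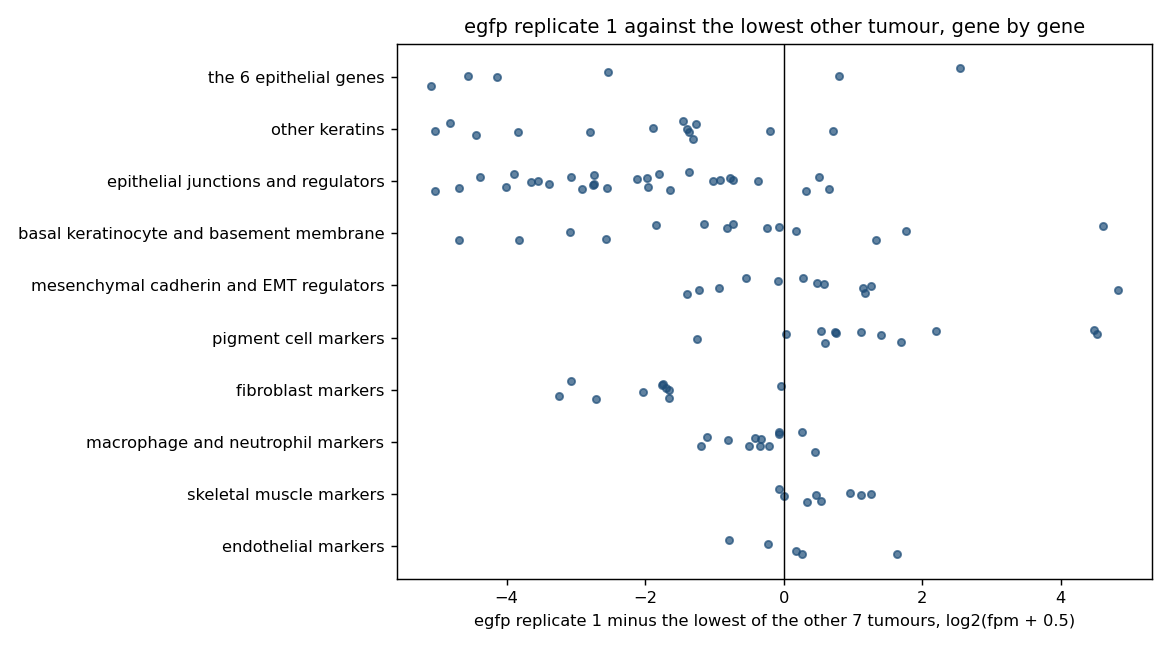
Distance of egfp replicate 1 from the lowest of the other 7 tumours on log2(fpm + 0.5), with each point 1 gene ID of a list (vertical position within a list is random), so that points left of 0 are genes lowest in that tumour. The keratin, junction and basal lists spread far to the left, with 24 of 55 IDs at -2 or less. Of the 10 fibroblast IDs, 4 lie there too, while pigment cell IDs lie mostly right of 0.

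Markers of other cell types were set beside these values, and their part in the result was not tested. With limma 0 of the 59 tested IDs in the 6 other lists passed the adjusted threshold, against 0.0534% of all tested genes. An unadjusted limma p under 0.05, which 15% of all tested genes had, was found for 4 of 12 pigment cell IDs (3 higher and 1 lower in dgat1a tumours), 3 of 10 fibroblast IDs and 1 of 12 macrophage and neutrophil IDs (all higher), and for 0 IDs of the other 3 lists. All 10 fibroblast IDs were lowest in egfp replicate 1, and 0 of the 10 were listed at 0. Their summed level was 265 fpm there, 2488 and 1494 fpm in the other egfp tumours and 1015 to 2502 fpm in dgat1a tumours. In egfp replicate 1, 4 of the 10 (40%) lay at least 2 log2 units under the lowest other tumour. That compares with 43.6% of the 55 epithelial IDs and 1.64% of all tested genes. The largest log2 fold changes of that list were 2.87 and 1.5 for the FN1 IDs, fibronectin genes, and 1.44 for COL5A1 (limma adjusted p-values of 0.24, 0.317 and 0.376). Without egfp replicate 1 these 3 values were 1.82, 0.68 and 0.33, and the median of the fibroblast list was 0.11 in place of 1.39. Of 12 macrophage and neutrophil IDs, 10 were lowest in egfp replicate 1, with a summed level of 377 fpm against 583 and 568 fpm in the other egfp tumours and 516 to 1249 fpm in dgat1a tumours. Their 3 largest log2 fold changes were 1.0 for an MPEG1 ID, 0.84 for an MFAP4 ID and 0.79 for ptprc. The limma adjusted p-values were 0.445, 0.485 and 0.284, and that MPEG1 value was 0.52 without egfp replicate 1. The other MPEG1 ID tested had 0.64, and the other MFAP4 IDs tested had 0.18 to 0.57.

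Pigment cell IDs did not go with the epidermal genes. In egfp replicate 1 their summed level was 7452 fpm, against 7722 and 5979 fpm in the other egfp tumours and 4127 to 19683 fpm in dgat1a tumours, and it was the lowest tumour in 1 of 12 IDs, OCA2. Log2 fold changes were largest for OCA2 and pmela, 1.45 each, and DCT, 1.18 (limma adjusted p-values of 0.458, 0.328 and 0.433). The value of OCA2 was 0.72 without egfp replicate 1. OCA2 measured 49.3 fpm in dgat1a replicate 2 and 0.617 to 7.52 fpm in all other tumours. Skeletal muscle IDs, whose relation to the epidermal genes was not tested, had another order of tumours. Their summed level was 1075, 209 and 241 fpm in dgat1a replicates 1, 3 and 5. It was 1.47 to 20.2 fpm in the other 5 tumours, egfp replicate 1 included (4.4 fpm). The largest log2 fold changes were 3.63 for actc1b, 3.26 for ckmb and 3.07 for atp2a1 (limma adjusted p-values of 0.358, 0.363 and 0.396). Summed endothelial IDs ranged from 86.98 to 149 fpm, with log2 fold changes of -0.44 for kdrl, -0.39 for tek and 0.32 for FLI1 (limma adjusted p-values of 0.585, 0.639 and 0.639). These were -0.75, -0.011 and -0.046 without egfp replicate 1.

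Loss of E-cadherin beside a gain of N-cadherin is a classical axis of melanoma. A list of 12 IDs, of mesenchymal genes and regulators of the epithelial-mesenchymal transition, was tested, with no common direction assumed. None passed the adjusted threshold, against 0.0534% of all tested genes, and 0 had an unadjusted limma p under 0.05, against 15%. The N-cadherin gene CDH2 measured 8.81, 393 and 30.4 fpm in the egfp tumours and 23.9 to 71.9 fpm in the dgat1a tumours. Its lowest tumour, egfp replicate 1, was thus the second highest for cdh1, but its highest, egfp replicate 2, had the fourth highest cdh1 level. The largest log2 fold changes in this list were 1.75 for VIM (ENSDARG00000010008), 1.25 for snai1b and 1.22 for ZEB2 (ENSDARG00000078416). The limma adjusted p-values were 0.415, 0.439 and 0.575. Leaving out egfp replicate 1 gave 1.25, 0.68 and 2.39. The other VIM ID had 0.63 with all tumours. For the paralogue zeb2a the values were 0.095 and, without egfp replicate 1, -0.25.

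**Figure D5:**
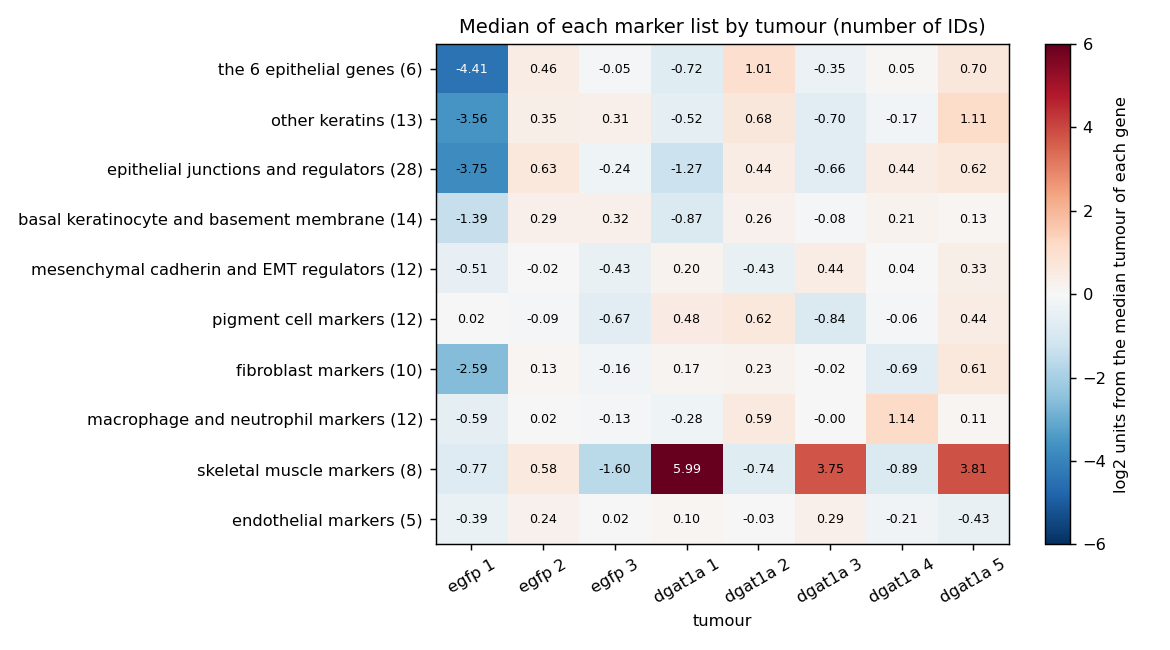
Median over each list's gene IDs (number in brackets) of log2(fpm + 0.5) relative to each gene's median tumour, by tumour, with blue for lower and red for higher. egfp replicate 1 is at -4.41 for the 6 epithelial genes, a median that hides krt8 and cdh1, which were not low there. It is at -3.56 for other keratins, -3.75 for junctions and regulators, -2.59 for fibroblast markers and 0.024 for pigment cell markers.

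Across all other tested genes, those whose pattern over the 8 tumours was most like the mean of the 6 genes included st14, c1qtnf6b, upk1a and st14b, with Pearson's r of 0.990 to 0.993. The likeness was measured on centred log2(fpm + 0.5), and over the 7 tumours without egfp replicate 1 these 4 had r of 0.951 to 0.979. They were picked by their r over the 8 tumours, so its size is no separate result. The mean mostly followed krt4, krt5, epcam and tp63, with SDs of 1.54 to 2.35, against 0.42 for krt8 and 0.85 for cdh1. st14 measured 1.19 fpm in egfp replicate 1 and 8.13 to 26.99 fpm in the other tumours, and upk1a was listed at 0 there against 6.15 to 29.2 fpm. Their log2 fold changes ran from 0.47 to 1.45, with limma adjusted p-values from 0.465 to 0.628.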

How the data were processed

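The authors deposited a per-million signal per tumour (fpm), variance-stabilised values on a log2 scale, and, per the file headers, their own comparison with log2 fold changes, a score (fold change over standard error) and p-values. The submitters' processing notes name GRCz11, STAR 2.5.3, featureCounts 1.6.2 and DESeq2 1.14.1. The annotation, strandedness and treatment of shared reads are not given in the sources used here. Sample titles gave the groups and replicate numbers, and no label gives a batch.

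limma 3.58.1 (R 4.3.3, intensity trend) was run on log2(fpm + 0.5) for genes averaging 1 fpm or more, two-sided, with Benjamini-Hochberg adjustment over all tested genes at 0.05. Such fold changes understate the change of low genes. Whole reads were recovered from the signal (100% of values whole within 0.01) and tested with edgeR 4.0.16 and DESeq2 1.42.0 as alternatives, beside other pseudocounts, filters and scalings, a replicate block and leaving out each tumour. The tests were tested on simulated data. Floors cover counting error only. The 6 genes and the lists were chosen with earlier results of these data known. IDs were named from a table that names 21017 of the 22416 IDs, matching list symbols regardless of letter case and, where needed, without a paralogue suffix, so that 1 symbol may cover several IDs. The text names the 6 genes, the 3 largest fold changes per list and the 5 genes most alike in pattern, except that some of these are not reported here. JUP, spint1b, CDH2, DST, krt18a.1, krt18b, krt92, krt94, krt97, icn, SOX10 and genes listed at 0 were chosen after their values were seen. So were the distance of 2 log2 units and the grouping of krt4, krt5, epcam and tp63.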

Additional observations from a re-analysis of the deposited data

How the results depend on the processing

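The count of 0 among the 6 genes held under all 21 alternatives, 2 of which, edgeR and DESeq2 without egfp replicate 1, were chosen after seeing the data. epcam alone of the 6 genes reached an unadjusted limma p under 0.05, without egfp replicate 2. In that setting 3124 of all tested genes did so, against 2529, or 15%, with all tumours. At such a share, 1 of 6 genes does not stand out. Over all tested genes the count of 9 was 3 with edgeR, 866 with DESeq2, 4 with dgat1a replicates 1 to 3 only, 5 to 55 when 1 tumour was left out, and 0 with edgeR (1630 at an unadjusted p under 0.05) or 269 with DESeq2 when egfp replicate 1 was left out. Why was not tested. With the replicate block the count over all genes was 0, with 2080 genes at an unadjusted p under 0.05, and the 6 genes kept positive values (1.30, 1.42, 0.45, 0.026, 1.78 and 0.84 for krt4, krt5, krt8, cdh1, epcam and tp63). The labels do not say that a number is shared by design, and deviations from the group means of same-numbered tumours correlated at 0.24, 0.073 and 0.0071.

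Directions reversed for krt4 (-0.65), krt5 (-0.52) and tp63 (-0.095) in limma without egfp replicate 1, for krt4 (-0.32) and krt5 (-0.33) in both edgeR and DESeq2 without it, for krt8 (-0.069) without egfp replicate 2 and for cdh1 (-0.38) without egfp replicate 3. With 1 tumour left out, log2 fold changes ran from -0.65 to 2.45 for krt4, -0.52 to 3.02 for krt5, -0.069 to 0.50 for krt8, -0.38 to 0.89 for cdh1, 0.13 to 3.15 for epcam and -0.095 to 2.07 for tp63. In each of these reversals of direction, the tumour left out was the egfp tumour in which that gene was lowest. Why the gene was low there was not tested. With all 8 tumours, edgeR gave log2 fold changes of 0.25 for krt4 and krt5, 0.85 for epcam and 0.61 for tp63. Correlations reversed for krt4 with krt8 (-0.38 without the 2 farthest tumours) and, without egfp replicate 1, for krt5 with cdh1 (0.085), cdh1 with epcam (0.40) and cdh1 with tp63 (0.36). With the deposited variance-stabilised values, 6 of 15 pairs passed, as in the main values. Depth limits tp63 and epcam in egfp replicate 1, at 18 and 20 reads.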

Other observations

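The tumour that was poor in epidermal transcripts, egfp replicate 1, also held some genes at levels far above those of the other 7 tumours. The genes given here were chosen, after the values were seen, by their distance from the other 7 tumours. The gene chrdl2, for an antagonist of bone morphogenetic proteins, measured 596 fpm there against 0.232 to 4.88 fpm. luzp2 measured 59.3 fpm against 0.328 to 0.829 fpm, and the metabotropic glutamate receptor gene GRM2 measured 50.3 fpm against 0.483 to 1.01 fpm. In all, 58 of 16853 tested genes, or 0.344%, lay at least 2 log2 units above the highest of the other tumours in egfp replicate 1. As far below the lowest lay 277. The 58 include luzp2 and GRM2, which passed the filter on low values only through their level in egfp replicate 1. The 2 counts are therefore not set against each other.

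At the opposite end, 6 of the 8 genes farthest below the other tumours were already described: krt5, krt17, cldnb, krt15, cldni and, from the basement membrane list, col7a1. The others, si:dkey-248g15.3 and si:dkey-239b22.1, measured 0.352 and 0.22 fpm in egfp replicate 1 against at least 31.1 and 19.3 fpm elsewhere. The 6 of 8 is no separate result, since the genes and lists were chosen with earlier results of these data known.

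Over the 7 tumours without egfp replicate 1, the 5 genes most like the mean of the 6 were esyt3, GMDS, TMEM138, LMBR1L and agr1 (Pearson's r of 0.982 to 0.992). TMEM138 did not share the low level of egfp replicate 1, with 7.31 fpm there against 4.0 to 6.09 fpm in the others.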
